A study of Mus musculus with 2 samples.

Results

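The genes described here are 48 regulators and machines of the cell division cycle, chosen by gene name. Earlier results of these data were known when they were chosen. They are sorted by phase from their known roles: 9 genes of G1, 13 of S phase and 26 of mitosis. Counted with mitosis are 4 chromosome and general proliferation markers. All 48 were found by gene identifier among the 34745 genes of the deposited table. The table comes from C57BL/6 mouse macrophages derived in culture from bone marrow. The cells were transfected with an antisense oligonucleotide (ASO, a short synthetic strand that pairs with a chosen RNA) and treated with lipopolysaccharide (LPS), the bacterial product that activates macrophages through TLR4. One group, AclyE14-ASO, received the oligonucleotide named for Acly together with LPS, and the other, Control-ASO, a control oligonucleotide and LPS. Both groups therefore share the transfection and the LPS, and no untreated cells were analysed here. The labels give neither the dose and time of the LPS nor the number of mice behind each culture.

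Each group was 1 library, so nothing here has a replicate check, no test was possible and no p-value is given. The libraries held 14215397 (Control-ASO) and 12751076 (AclyE14-ASO) gene counts. Ratios are AclyE14-ASO over Control-ASO counts, each divided by its library total, with exact 95% intervals. These cover counting error only and no difference between cultures, because each group is 1 library. PCR copies of 1 molecule cannot be recognised in the deposited counts, so the intervals may be too narrow even for counting error. The words higher and lower, as calls, mean a ratio past 1.5-fold in a gene with at least 20 counts over both libraries. By this rule 15% of the 11576 genes with that many counts were higher and 15.6% were lower, and the median gene had a ratio of 0.918. Acly itself had 1549 counts with the control and 768 with the AclyE14-ASO, which is 44.7% lower per library total (ratio 0.553, 0.506 to 0.603). Of 18 macrophage markers 17 reached 20 counts, led by the lysozyme gene Lyz2 at 9798 and 12276 FPKM (fragments per kilobase of gene, scaled to library depth), while Cx3cr1 was at 0 in both libraries.

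A cell that divides passes a decision point in G1, where D-type cyclins with CDK4 or CDK6 inactivate the retinoblastoma protein and release E2F transcription factors. E2F switches on the genes for origin licensing, replication and nucleotide supply. A later wave of transcription, driven through B-MYB and FOXM1 at elements called CHR, makes the cyclins, kinases and spindle proteins of mitosis. Macrophages grown from bone marrow divide in response to CSF-1, and LPS is known to halt them in G1. The level of these transcripts in a bulk library reflects how many cells cycle and how much RNA each holds, and these cannot be told apart here.

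Mitotic genes were almost all higher with the AclyE14-ASO, 23 of 26, with a median ratio of 3.23. Of the S-phase genes 7 of 13 were higher, with a median of 1.65, and of the G1 genes 4 of 9, with a median of 1.19. Under 20 Control-ASO counts were 11 of the mitotic genes, 1 S-phase gene and 1 G1 gene. Without these the median log2 ratios were 1.32 for mitosis, 0.755 for S phase and 0.234 for G1. Over all members of each phase they were 1.69, 0.727 and 0.255. Summed over each phase, CPM (counts scaled to a common library total) went from 141 to 256 in mitosis, from 430 to 481 in S phase and from 993 to 1233 in G1. No member was lower by 1.5-fold. Over all 48 members 34 were higher, 13 lay within 1.5-fold and 1, Cenpf, held too few counts, and the median ratio was 2.14. For 25 members the whole counting interval lay past 1.5-fold on the higher side, against 8.15% of all genes.

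**Figure D1:**
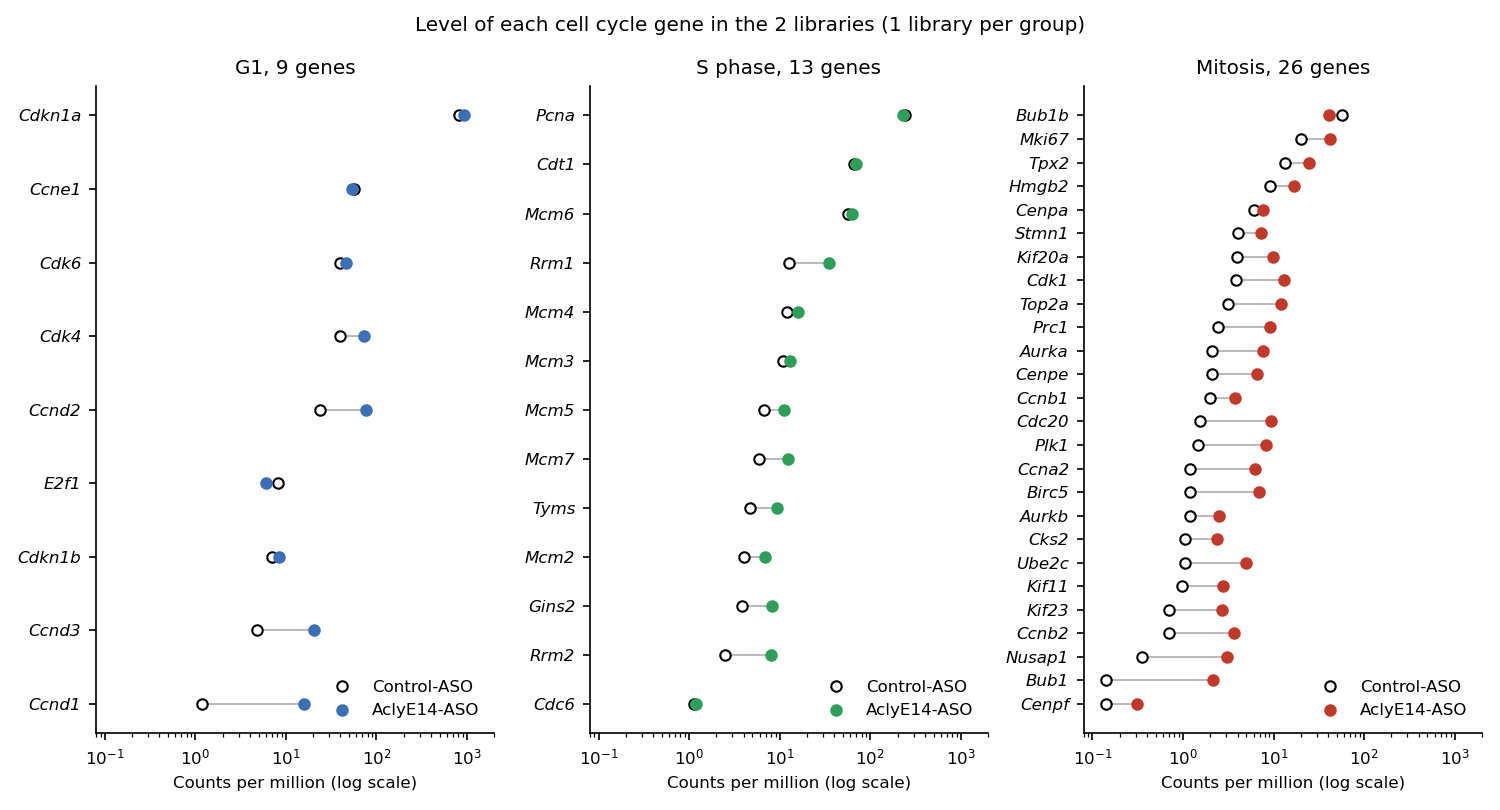
Level of each of the 48 genes in CPM (log axis), with open circles for the Control-ASO library and filled circles for the AclyE14-ASO library, in panels for G1 (9 genes), S phase (13) and mitosis (26). The filled circle lies to the right for 25 of the 26 mitotic genes, and the most abundant genes of G1 and S phase, Cdkn1a and Pcna, have circles that nearly touch.

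Low counts scatter more, so the members were also read by depth. Among genes with 20 or more but under 200 counts over both libraries 30.9% were higher and 18.7% lower, and of the 26 members in that range 23 were higher. With 200 or more but under 2000 counts the shares of all genes were 8.16% higher and 16% lower, and 11 of 19 members were higher. From 2000 counts on they were 6.65% and 9.31%, and neither of the 2 members there, Cdkn1a and Pcna, was called. Of the 48 members 13 had under 20 Control-ASO counts, and those that passed the minimum did so only with the help of their AclyE14-ASO counts. Of the other 35, 23 were higher, against 10.1% of all genes with at least 20 Control-ASO counts.

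Across the 48 members ratios were smaller at higher levels: Spearman's rho between summed count and ratio was -0.56, and -0.12 across all genes with 20 or more counts and at least 1 in each library. These are descriptions across genes of the same 2 libraries, and both measures rest on the same counts.

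**Figure D2:**
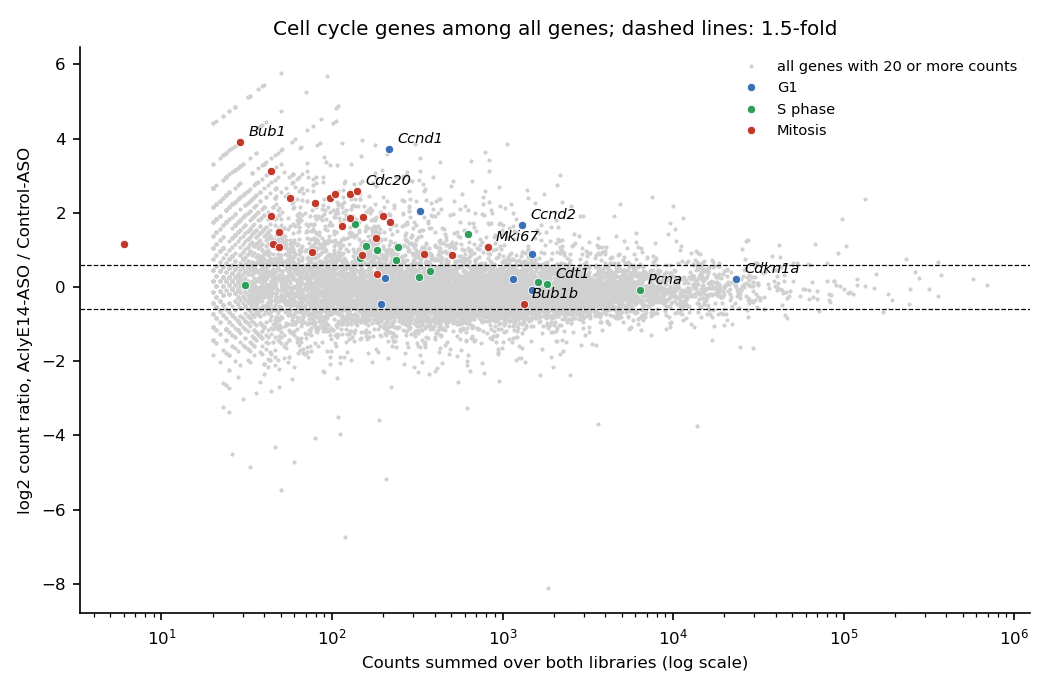
Log2 count ratio against the counts summed over both libraries (log axis) for all genes with 20 or more counts (grey) and for the members (blue G1, green S phase, red mitosis); dashed lines mark 1.5-fold, and 19 genes at 0 in 1 library are not drawn. Most mitotic genes sit above the upper line at low counts, while Cdkn1a, Pcna, Cdt1 and Bub1b sit inside the lines at high counts; the point left of 20 counts is Cenpf.

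Markers of another cell type moved in the same direction as the cell cycle genes. Of 18 fibroblast and stromal markers 16 were higher and 2 were under 20 counts. Of all genes with 20 or more counts 15% were higher, and 30.9% of those under 200 counts. Under 20 Control-ASO counts were 6 of the 18 markers. Those among the 6 that passed the minimum did so only with the help of their AclyE14-ASO counts. The summed level of the 18 markers was 354 CPM in the control and 1403 in the AclyE14-ASO library. Their median ratio was 4.46, with Thy1 (6 and 76 counts) and Col3a1 (18 and 193 counts) the highest, Fbn1 (164 and 323 counts) and Acta2 (336 and 992 counts) the lowest of those called, and Tagln the most abundant (12.6 and 71.9 FPKM). Postn, a fibroblast gene, was at 0 in the control and 5 counts in the AclyE14-ASO library. Macrophage markers summed to 21977 and 28604 CPM, with a median ratio of 0.915, Itgam at a ratio of 4.74, Cd14 at 2.23, Cd68 at 0.557 and C1qa at 0.602. The part of stromal cells in the higher D-type cyclins, nucleotide enzymes and mitotic genes was not tested.

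Of 12 neutrophil and progenitor markers, 3 reached 20 counts and all 3 were higher: Cd34 (23 and 159 counts, ratio 7.71), S100a8 (276 and 520 counts, ratio 2.10) and Csf3r (327 and 463 counts, ratio 1.58). The list summed to 44.7 and 90.2 CPM, a ratio of 2.02 (1.83 to 2.22), with 5 markers at 0 in both libraries, S100a9, Ly6g, Camp, Elane and Prtn3. Lymphocyte markers summed to 16.7 and 25.7 CPM, with 4 of 10 at 0 in both, and erythroid markers to 0.211 and 0.0784, with 5 of 7 at 0 in both. The part of these cells in the result was not tested either. Endothelial markers summed to 122 and 76.2 CPM, led by Kdr (1518 and 675 counts), with 3 of 8 at 0 in both.

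In G1 the D-type cyclins were higher, and the CDK inhibitors of the set, Cdkn1a and Cdkn1b, lay within 1.5-fold. Of the inhibitors outside the set, Cdkn2a, Cdkn2c and Cdkn2d were higher and Cdkn1c lay within 1.5-fold. The 3 D-type cyclins are the growth factor sensors of the cycle. Ccnd1 (ENSMUSG00000070348, chromosome 7, 144929931 to 144939925, minus strand, GRCm38) had 17 counts in the control library and 200 in the other, a ratio of 13.1 (7.99 to 23.0). Ccnd2 (chromosome 6, 127125162 to 127152193, minus strand) had 340 and 966 counts, a ratio of 3.17 (2.80 to 3.59). Ccnd3 (chromosome 17, 47505051 to 47599691, plus strand) had 69 and 258 counts, a ratio of 4.17 (3.18 to 5.52). All 3 intervals lay past 1.5-fold, and that of Ccnd1 lay above those of the other two. Exons of Ccnd1 share 1100 bases with LTO1 on the opposite strand (312 and 231 counts), and the pair summed to a ratio of 1.46 (1.26 to 1.69). Ccnd3 shares 361 bases with Bysl (239 and 190 counts), with a summed ratio of 1.62 (1.40 to 1.88). Per length, the D-type cyclins together were at 2.52 FPKM in the control and 11.1 FPKM in the AclyE14-ASO library. Ccnd2 was the largest part in both, 76.9% and 55.2% of that sum, and the share of Ccnd1 went from 11.3% to 33.6%. These shares hold for the lengths behind the deposited FPKM only. Those lengths were 4210 bases for Ccnd1, 12354 for Ccnd2 and 16274 for Ccnd3, against merged exons of 4709, 9409 and 8775.

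The catalytic partners of the D-type cyclins differed from each other. Cdk4 had 561 and 925 counts, a ratio of 1.84 (1.65 to 2.05). Cdk6 had 563 and 585 counts, a ratio of 1.16 (1.03 to 1.3), within 1.5-fold. Cdk4 also overlaps an abundant neighbour: its exons share 641 bases with Tspan31 on the opposite strand (1542 and 1007 counts), and the pair summed to a ratio of 1.02 (0.962 to 1.09). A strand-specific kit is named in the labels, but no source says whether counting used the strand, so the values of overlapping genes are uncertain.

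The genes of the G1-to-S step did not follow the D-type cyclins. Ccne1, cyclin E1, which activates CDK2 at the entry to S phase, had 805 and 687 counts, a ratio of 0.951 (0.858 to 1.05). E2f1, the founding member of the E2F activators, had 117 and 77 counts, a ratio of 0.734 (0.543 to 0.987), an interval just below 1 on library totals. The direction of Ccne1 turned when the ratios were scaled to the median gene or by TMM or DESeq2 factors, and that of E2f1 did not, though its interval then held 1.

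Both CDK inhibitors of the set lay within 1.5-fold. Cdkn1a, which encodes p21, was the most abundant member by far, at 264 FPKM (11546 counts) in the control and 304 FPKM (11917 counts) in the AclyE14-ASO library. Its ratio was 1.15 (1.12 to 1.18). Cdkn1b, which encodes p27, had 99 and 106 counts, a ratio of 1.19 (0.899 to 1.59). At these depths the interval of p21 lay wholly above 1 and that of p27 held 1.

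**Figure D3:**
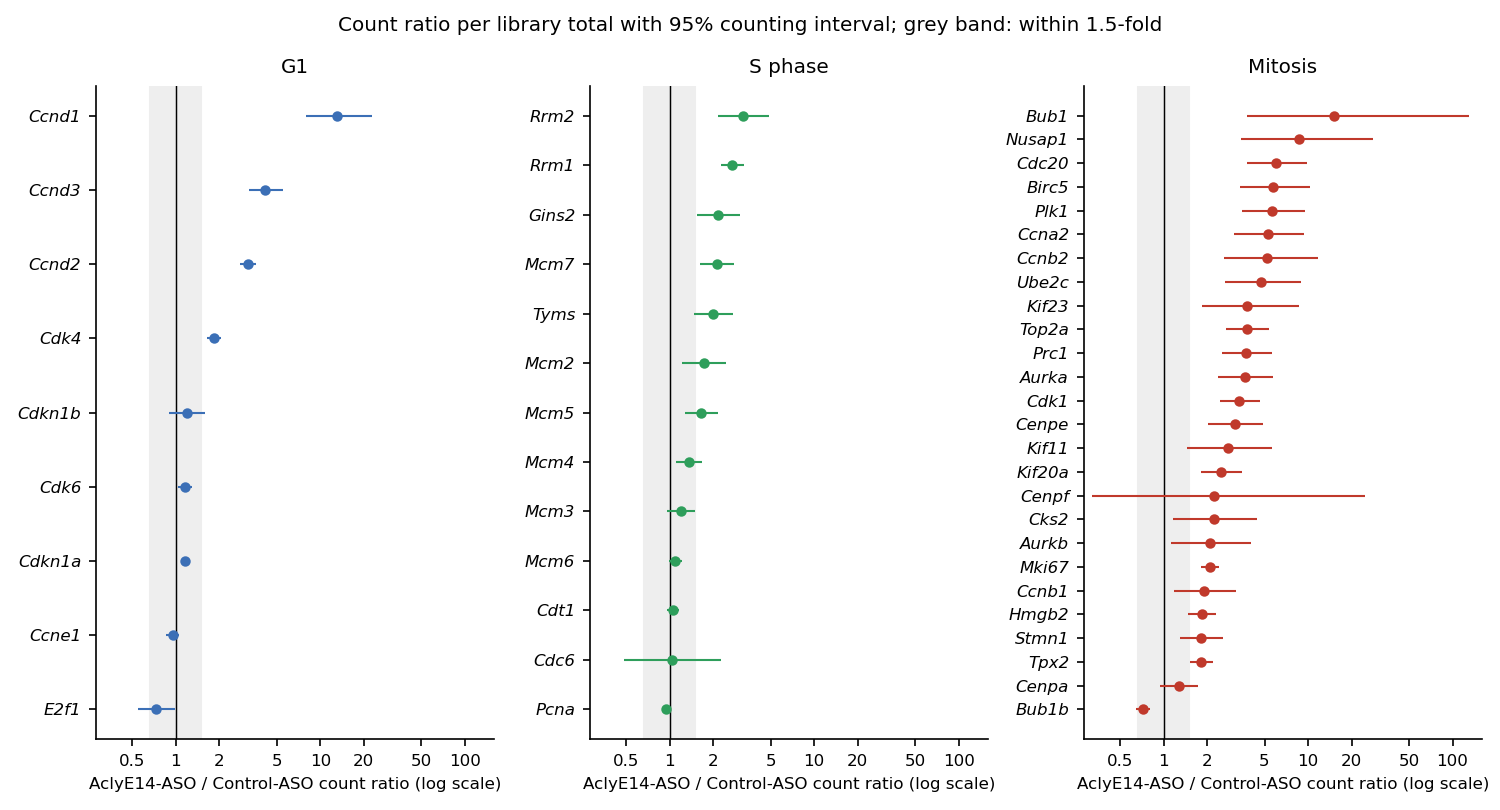
Count ratio of each member (points, log axis) with its exact 95% counting interval (bars), sorted within G1, S phase and mitosis; the grey band is the range within 1.5-fold. Intervals narrow with depth, from Bub1 (3.78 to 131) to Cdkn1a (1.12 to 1.18), and 25 of them lie wholly to the right of the band.

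Among the S-phase genes, enzymes of deoxynucleotide supply were higher, and 3 of 8 licensing factors were. Rrm1 and Rrm2 encode the large and small subunits of ribonucleotide reductase, which makes deoxynucleotides. Rrm1 had 182 and 443 counts, a ratio of 2.71 (2.28 to 3.24), and Rrm2 35 and 101 counts, a ratio of 3.22 (2.17 to 4.87). The 2 intervals overlap, so the subunits were higher to an extent that counting error does not separate. Tyms, thymidylate synthase, had 66 and 118 counts, a ratio of 1.99 (1.46 to 2.74).

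At the replication fork, Gins2, a subunit of the replicative helicase, had 54 and 105 counts, a ratio of 2.17 (1.55 to 3.07). Its exons share 2758 bases with Gse1 on the opposite strand (253 and 264 counts), and the sum had a ratio of 1.34. Pcna, the sliding clamp that holds polymerases on DNA, was the most abundant S-phase gene, at 69.2 and 64.9 FPKM (3452 and 2905 counts). Its ratio of 0.938 (0.893 to 0.986) lay wholly below 1 on library totals, and its direction turned when scaled to the median gene or by TMM or DESeq2 factors.

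Origin licensing loads the MCM2 to MCM7 ring on DNA with the help of CDC6 and CDT1. Cdc6 had 16 and 15 counts, and its ratio of 1.05 (0.481 to 2.26) could not show a change of 1.5-fold at this depth. Cdt1 had 933 and 881 counts, a ratio of 1.05 (0.959 to 1.16). Per length the 2 loaders were far apart, Cdt1 at 31.6 FPKM and Cdc6 at 0.122 FPKM in the AclyE14-ASO library.

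The MCM ring has 1 copy of each of its 6 subunits, but their transcript ratios ran from 1.10 to 2.11. Mcm7 was the highest by ratio, with 84 and 159 counts and a ratio of 2.11 (1.61 to 2.78). Mcm2 followed with 57 and 88 counts, a ratio of 1.72 (1.22 to 2.45), and Mcm5 with 95 and 141 counts, a ratio of 1.65 (1.27 to 2.17). Mcm4 (169 and 205 counts), Mcm3 (155 and 167 counts) and Mcm6 (815 and 801 counts) lay within 1.5-fold, with ratios of 1.35, 1.20 and 1.10. The interval of Mcm7 did not overlap that of Mcm6 (0.993 to 1.21) or Mcm3 (0.959 to 1.5), so counting error alone does not make these subunits equal. Mcm7 shares 321 exon bases with Ap4m1 and 64 with Cops6, both on the opposite strand, and its ratio was 1.74 (1.43 to 2.12) summed with Ap4m1 and 1.14 summed with Cops6. In the control the levels ran from 0.448 FPKM for Mcm2 to 9.86 FPKM for Mcm6, the most abundant subunit in both libraries.

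Promoter letters are shown for 2 licensing genes, because E2F control of this group is textbook knowledge and the windows hold the letters. Both stretches are from RefSeq (GRCm38.p6), run from 170 bases before to 30 bases after the annotated start and read along the gene, 5′ to 3′. Mcm5 lies at chr8:75109339-75109538, plus strand, and Mcm6 at chr1:128359676-128359875, minus strand. Capitals mark TTTGGCGC (an E2F motif, GCGCCAAA on the other strand) and CCAAT (the box bound by NF-Y, ATTGG on the other strand).
Mcm5: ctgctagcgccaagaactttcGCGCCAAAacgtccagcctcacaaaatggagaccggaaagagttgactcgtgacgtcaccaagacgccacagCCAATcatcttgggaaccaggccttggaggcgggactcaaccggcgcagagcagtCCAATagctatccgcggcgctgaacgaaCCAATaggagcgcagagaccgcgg
Mcm6: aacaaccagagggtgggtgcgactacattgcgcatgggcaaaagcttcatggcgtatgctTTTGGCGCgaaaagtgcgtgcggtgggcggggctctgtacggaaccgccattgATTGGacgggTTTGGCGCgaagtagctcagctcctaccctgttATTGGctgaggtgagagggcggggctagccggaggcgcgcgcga
The Mcm6 stretch holds 2 E2F motifs and the Mcm5 stretch 1. Of the 2 genes only Mcm5 passed 1.5-fold, and its interval (1.27 to 2.17) reached below that. Any part of these letters in the ratios was not tested.

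Of the mitotic genes 25 of 26 had a ratio above 1, the exception being Bub1b. Their summed counts were 2002 in the control and 3268 in the AclyE14-ASO library, a ratio of 1.82 (1.72 to 1.92). Of these counts 806 and 522 belonged to Bub1b alone. Leaving out this 1 gene with a ratio below 1 raises the summed ratio by construction. Without it the sums were 1196 and 2746 counts over 25 genes, or 84.1 and 215 CPM, a ratio of 2.56 (2.39 to 2.74). Levels were low: 7 of the 26 genes reached 1 FPKM in the control and 15 in the AclyE14-ASO library.

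All 8 mitotic cyclins and kinases were higher. Ccna2, cyclin A2, had 17 and 80 counts, a ratio of 5.25 (3.08 to 9.45). Ccnb2, cyclin B2, had 10 and 47 counts, a ratio of 5.24 (2.61 to 11.6), and Ccnb1, cyclin B1, 28 and 48 counts, a ratio of 1.91 (1.18 to 3.16). The intervals of the 2 B-type cyclins overlap. Their kinase partner Cdk1 had 55 and 165 counts, a ratio of 3.34 (2.45 to 4.62), and Cks2, a small subunit of that kinase, 15 and 30 counts, a ratio of 2.23 (1.16 to 4.46). Ccna2 shares 510 exon bases with Exosc9 on the opposite strand (308 and 271 counts), and the pair summed to a ratio of 1.20.

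The other mitotic kinases were higher as well. Plk1, which drives centrosome maturation and mitotic entry, had 21 and 106 counts, a ratio of 5.63 (3.5 to 9.47). Aurka, the centrosomal Aurora kinase, had 30 and 98 counts, a ratio of 3.64 (2.40 to 5.68). Aurkb, the Aurora kinase of the chromosomal passenger complex, had 17 and 32 counts, a ratio of 2.10 (1.13 to 4.03). The intervals of Aurkb, Ccnb1 and Cks2 excluded 1 but reached below 1.5-fold.

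The spindle checkpoint held both the highest and the lowest ratio of all members. Bub1, a checkpoint kinase at the kinetochore, had 2 and 27 counts, a ratio of 15.1 (3.78 to 131). Bub1b, which encodes its relative BUBR1, a part of the complex that holds back anaphase, had 806 and 522 counts, a ratio of 0.722 (0.645 to 0.807). Bub1b was also the most abundant mitotic gene of the control, at 11.7 FPKM against 0.0270 FPKM for Bub1. No exon of another gene in the table overlaps those of Bub1 or Bub1b. Cdc20, the activator of the anaphase-promoting complex that BUBR1 restrains, had 22 and 118 counts, a ratio of 5.98 (3.77 to 9.90), and Ube2c, the ubiquitin-conjugating enzyme of that complex, 15 and 64 counts, a ratio of 4.76 (2.68 to 8.99). Cdc20 shares 53 exon bases with Elovl1 on the opposite strand (1164 and 710 counts), and the pair summed to a ratio of 0.778.

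At centromeres and kinetochores the picture was mixed. Birc5, survivin, a partner of Aurora B, had 17 and 87 counts, a ratio of 5.71 (3.37 to 10.2). Cenpe, a kinetochore motor, had 30 and 84 counts, a ratio of 3.12 (2.04 to 4.91). Cenpa, the histone H3 variant that marks the centromere, had 86 and 98 counts, a ratio of 1.27 (0.941 to 1.72), within 1.5-fold. Cenpf, a large kinetochore protein, had only 2 and 4 counts, and its ratio of 2.23 has an interval from 0.320 to 24.6.

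All 6 genes of the spindle and of cytokinesis were higher. Nusap1, a microtubule-binding protein of the spindle, had 5 and 39 counts, a ratio of 8.70 (3.42 to 28.3). The kinesin Kif23 had 10 and 34 counts, a ratio of 3.79 (1.83 to 8.60), and its midzone partner Prc1 35 and 117 counts, a ratio of 3.73 (2.54 to 5.60). These 2 act together at the central spindle and their ratios differ by less than counting error. Kif11, the motor that pushes spindle poles apart, had 14 and 35 counts, a ratio of 2.79 (1.46 to 5.61). Kif20a, another midzone kinesin, had 56 and 125 counts, a ratio of 2.49 (1.80 to 3.47), and shares 1271 exon bases with Cdc23 on the opposite strand (211 and 156 counts), with a summed ratio of 1.17. Tpx2, which activates Aurora A on the spindle, had 192 and 313 counts, a ratio of 1.82 (1.51 to 2.19).

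The 4 chromosome and general proliferation markers were all higher. Top2a, which untangles chromosomes, had 45 and 153 counts, a ratio of 3.79 (2.70 to 5.41). Mki67, the gene of the Ki-67 antigen on mitotic chromosomes, had 284 and 533 counts, a ratio of 2.09 (1.81 to 2.42). Hmgb2, a chromatin protein, had 131 and 216 counts, a ratio of 1.84 (1.47 to 2.30), and Stmn1, the microtubule destabiliser stathmin, 57 and 93 counts, a ratio of 1.82 (1.29 to 2.58). Of these 4 genes, Top2a and Mki67 had intervals wholly past 1.5-fold.

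The promoters of 3 mitotic genes are shown for the CHR element, to be set against those of the MCM genes. They come from the same RefSeq windows, over the same 200 bases around the start. Cdk1 lies at chr10:69352883-69353082, Cdc20 at chr4:118437314-118437513 and Ccnb2 at chr9:70421525-70421724, all on the minus strand. Capitals mark TTTGAA (CHR) and CCAAT, or ATTGG on the other strand.
Cdk1: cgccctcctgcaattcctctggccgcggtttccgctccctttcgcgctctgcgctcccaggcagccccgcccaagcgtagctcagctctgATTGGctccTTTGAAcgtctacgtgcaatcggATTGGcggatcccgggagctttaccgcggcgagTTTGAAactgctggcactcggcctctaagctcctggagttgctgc
Cdc20: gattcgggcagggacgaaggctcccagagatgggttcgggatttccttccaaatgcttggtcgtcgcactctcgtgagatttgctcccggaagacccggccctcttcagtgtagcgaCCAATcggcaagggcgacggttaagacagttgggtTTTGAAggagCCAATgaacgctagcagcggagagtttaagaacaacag
Ccnb2: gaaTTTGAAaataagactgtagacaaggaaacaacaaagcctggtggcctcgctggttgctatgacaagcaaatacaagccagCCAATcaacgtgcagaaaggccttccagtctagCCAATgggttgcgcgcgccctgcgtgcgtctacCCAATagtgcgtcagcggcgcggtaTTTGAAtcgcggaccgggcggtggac
In each of the 3 a CHR match lies close to the start, at 15 and 18 bases before it in Cdk1 and Cdc20 and 4 bases after it in Ccnb2, counted from the start to the first base of the match. Each stretch also holds at least 2 CCAAT boxes, and none holds an E2F motif of the letters searched.

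Over the members with a RefSeq promoter, 39 of 48, motif letters were found at different shares by phase. The windows run from 250 bases before to 50 after each start, 43 windows in all, and both strands were searched. The E2F letters TTTCCCGC or TTTGGCGC were in 6 of 12 S-phase windows, 0 of 22 mitotic and 0 of 9 G1 windows, and in 1.56% of all 32851 windows. The CHR letters TTTGAA or TTCGAA were in 17 of 22 mitotic windows, 2 of 12 S-phase windows and 0 of 9 G1 windows, and in 19.2% of all windows. CCAAT was in 20 of 22 mitotic, 9 of 12 S-phase and 2 of 9 G1 windows, against 37.4% of all windows. Each motif was counted on its own, whether or not its match overlapped another. Over the 11398 windows of genes with 20 or more counts the shares were 2.97% for E2F, 13.6% for CHR and 37.2% for CCAAT.

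Calls were also set beside the letters within a phase. Of the 6 S-phase members that hold E2F letters, 2 were higher (median ratio 1.15), and of the 5 that lack them 4 were (median 1.99). Of the 16 mitotic members with CHR letters 13 were higher (median ratio 3.68, Cenpf included), and all 5 without them were (median 3.12). Bub1b and Cenpa, the mitotic genes within 1.5-fold, both hold CHR letters. A match describes the letters of this window only. E2F sites with letters other than TTTCCCGC or TTTGGCGC were not searched, so a window counted as lacking E2F letters may hold such a site. Ccnd1, Ccnd2, Mcm4, Gins2, Ccna2, Aurkb, Kif20a, Tpx2 and Stmn1 were not in the promoter table.

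**Figure D4:**
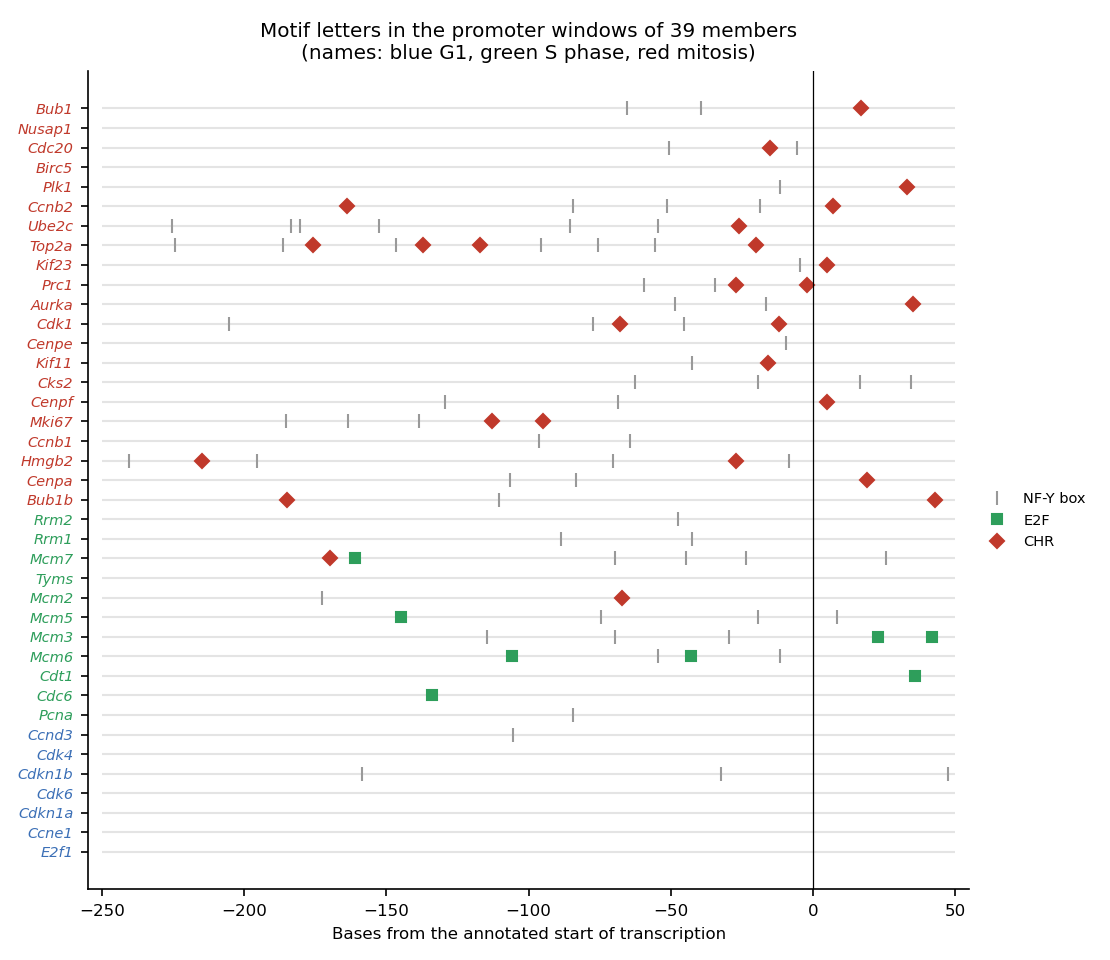
Centres of the E2F (green squares), CHR (red diamonds) and NF-Y (CCAAT, grey ticks) letters along the promoter windows of 39 members, in bases from the annotated start; each row is a gene, sorted by ratio within mitosis (red names), S phase (green) and G1 (blue), and genes with 2 windows show both in 1 row. E2F squares mark TTTCCCGC or TTTGGCGC, the only E2F letters searched, and occur only in S-phase rows. CHR diamonds occur in 16 of 21 mitotic rows, many near the start.

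Other genes of the cycle, listed by role with earlier results of these data known, followed the same order of phases by median ratio. Of the 63 other mitotic genes measured, 40 were higher and 0 lower, 12 lay within 1.5-fold and 11 were under 20 counts. Of these genes 38 had under 20 Control-ASO counts. Those among them that passed the minimum did so only with the help of their AclyE14-ASO counts. Among all genes with 20 or more but under 200 counts 30.9% were higher. The list summed to 577 and 761 CPM, a ratio of 1.32 (1.28 to 1.36). The median ratio was 2.79 over the 61 with counts in both libraries. Hmmr, a spindle protein, had 1 and 38 counts, a ratio of 42.4 (7.16 to 1717), and Espl1, the protease separase, 2 and 37 counts. The lowest were Ckap5, a microtubule polymerase (667 and 409 counts, ratio 0.684), and Bub3, the checkpoint partner of BUB1 and BUBR1 (1214 and 813 counts, ratio 0.747). Tubb5, a beta-tubulin and the most abundant of the list, had 1814 and 2995 counts, a ratio of 1.84 (1.74 to 1.95).

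Of 50 other S-phase genes 15 were higher, 3 lower, 28 within 1.5-fold and 4 under 20 counts, with a median ratio of 1.31. Among all genes with 20 or more counts 15% were higher and 15.6% lower. Among those of them under 200 counts the shares were 30.9% and 18.7%. Of the 50 genes 9 had under 20 Control-ASO counts. Tk1, thymidine kinase, had 4 and 54 counts, a ratio of 15.1 (5.55 to 57.2). Orc1, a subunit of the origin recognition complex, had 21 and 10 counts (ratio 0.531), and Cdc7, a kinase that fires origins, 26 and 14 counts (ratio 0.6), and both intervals held 1. The other gene called lower, Rpa2, a subunit of the single-strand binding protein RPA, had 193 and 111 counts, a ratio of 0.641 (0.503 to 0.814), and is named here after its values were seen. Gins4 had 254 and 220 counts, a ratio of 0.966.

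Of 31 other G1 genes 7 were higher, 2 lower, 20 within 1.5-fold and 2 under 20 counts, with a median ratio of 0.960. The shares of all genes with 20 or more counts were 15% higher and 15.6% lower. For those of them under 200 counts they were 30.9% and 18.7%. Cdkn2a, the locus of p16 and p19ARF, had 11 and 32 counts, a ratio of 3.24 (1.59 to 7.13), and Cks1b, a CDK subunit, 51 and 129 counts, a ratio of 2.82 (2.02 to 3.98). E2f6, a repressor of the E2F family, had 83 and 39 counts (ratio 0.524), and Fbxw7, which targets cyclin E for degradation, 406 and 230 counts (ratio 0.632). Cdkn1c, which encodes the inhibitor p57, was the most abundant, at 230 and 167 FPKM, a ratio of 0.726 (0.703 to 0.750). The lists' medians are to be read beside 0.918, the median ratio of all genes with 20 or more counts.

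**Figure D5:**
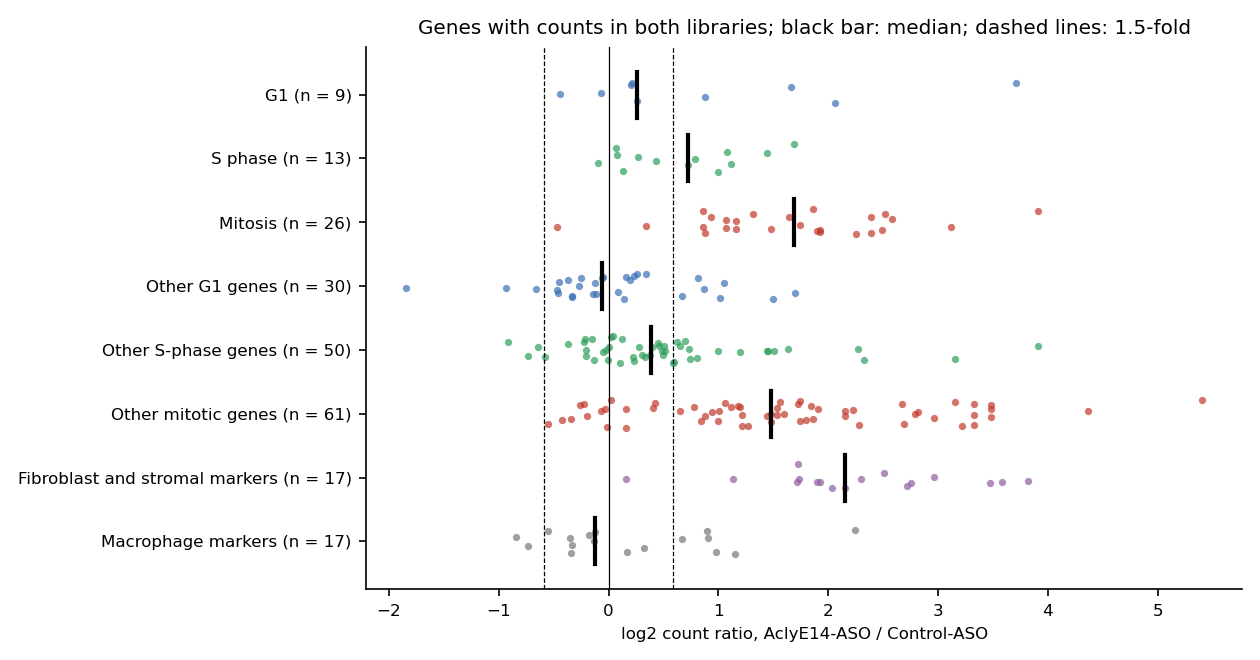
Log2 count ratio of each gene (points) and the median (black bar) for the members by phase, for the other genes of each phase, and for markers of fibroblasts and of macrophages, over genes with counts in both libraries; dashed lines mark 1.5-fold. The mitotic members and the other mitotic genes lie mostly right of the upper line, the medians of both G1 lists lie between the dashed lines, and the fibroblast markers have the rightmost median.

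Exons of 14 members overlap exons of another gene in the table, each time on the opposite strand. Of these 13 were called higher, and in 7 of the 13 the sum with a partner lay within 1.5-fold. Of the 34 members with no such overlap 21 were higher.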

How the data were processed

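RNA-seq libraries were made from total RNA with an mRNA capture step, per the labels' protocols, which name a strand-specific kit and a second kit. HISAT2, StringTie 1.3.0, edgeR and mm10 are named in the submitters' processing notes, with no role. The deposited table gives raw counts per Ensembl gene, per the file headers, and FPKM values made by the authors. The FPKM worth of 1 count was 1.11 times larger in the AclyE14-ASO library, which equals the ratio of the totals, so the deposited FPKM is scaled to summed gene counts. The lengths behind it, 692 to 17919 bases for members, were 0.363 to 1.97 times the merged exons, which limits comparison of levels between genes. Symbols came from GENCODE M21 (GRCm38) for 34267 of 34745 identifiers.

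Count ratios and exact (Clopper-Pearson) 95% conditional intervals were computed on the whole table with Python 3.11.15 and SciPy 1.17.1, and tested on simulated data. Scaling factors came from edgeR 4.0.16 and DESeq2 1.42.0 in R 4.3.3. No model was fitted. Medians used all listed genes with counts in both libraries. Alternatives were other scalings, count minimums, thresholds, and FPKM with pseudocounts of 0.1, 1 and 5. A minimum on Control-ASO counts was added after seeing the data. All members were named, and in each other list the 2 highest, the 2 lowest and the most abundant genes could be named. Members and lists were chosen with earlier results of these data known.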

Additional observations from a re-analysis of the deposited data

How the results depend on the processing

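The calls of the 47 members with 20 or more counts were the same with TMM factors, DESeq2 size factors and centring on the median gene, where 34 were higher and 0 lower. The scalings shift every log2 ratio by 0.11, 0.10 and 0.12, which turned the direction of Ccne1 and Pcna only. The share of higher genes among all called genes moved from 49.0% to 61.0%, 59.9% and 62.2%. With no count minimum 3640 genes were higher and 3301 lower. With a minimum of 100 counts 902 genes were higher and 1341 lower. That minimum left 36 members, of which 24 were higher, 13 of them mitotic.

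Measured as FPKM + 1, with genes averaging under 1 FPKM left out, 31 members remained and 18 were higher (4 of S phase, 11 of mitosis), as were 609 genes, with 734 lower, and the mitotic median log2 ratio was 0.81. With FPKM + 0.1 the counts were 20 members (12 of mitosis), 787 genes higher and 1184 lower. With FPKM + 5 they were 4 members (2 of G1, 1 of S phase, 1 of mitosis), 287 genes higher and 258 lower, and the median log2 ratios were 0.29 for all members, 0.13 for G1, 0.20 for S phase and 0.36 for mitosis. A pseudocount pulls low genes towards no change by construction.

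At 2-fold 26 members (3 of G1, 4 of S phase, 19 of mitosis) and 1078 genes were higher and 548 genes lower. At the lower threshold tried 2 members, E2f1 and Bub1b, and 3790 genes were lower. Where the whole interval had to pass 1.5-fold, 25 members (4 of G1, 4 of S phase, 17 of mitosis) and 943 genes were higher. By the same rule 634 genes were lower. With at least 20 Control-ASO counts 35 members were left, without 11 of the 26 mitotic ones. Of the 35, 23 were higher, 13 of them mitotic. Of all 10490 genes with that many 1058 were higher (10.1%). No library could be left out, since each group has 1. No paired analysis was possible because each group has 1 library and the labels carry no replicate numbers. Members under about 20 counts in a library, such as Bub1, Cdc6 and Cenpf, are limited by depth.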

Other observations

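Some protein complexes and families in the lists of other cell cycle genes were read as units after their values were seen, as values only. In the NDC80 complex, which ties kinetochores to microtubules, Ndc80 had 3 counts in the Control-ASO and 24 in the AclyE14-ASO library, Nuf2 3 and 27, and Spc24 5 and 31, while the fourth subunit, Spc25, had 34 and 29. Its ratio of 0.951 (0.559 to 1.61) lay below the intervals of the other subunits, of which the lowest began at 2.66. The 6 condensin genes listed, which compact mitotic chromosomes, were higher: Smc2 had 30 and 75 counts, Smc4 46 and 125, Ncapd2 40 and 104, Ncaph 18 and 45, Ncapg 5 and 21, and Ncapg2 148 and 238. Ncapd3 and Ncaph2, condensin subunits outside the list, did not follow: Ncapd3 had a log2 ratio of -0.62 over 95 summed counts, which is lower by the same rule, and Ncaph2 one of 0.00 over 1531.

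Of the INK4 inhibitors of CDK4 and CDK6, the 3 with 20 or more counts were higher. Cdkn2d had 168 and 265 counts, a ratio of 1.76 (1.44 to 2.15), Cdkn2c 21 and 38 counts, a ratio of 2.02 (1.15 to 3.62), and Cdkn2a 11 and 32 counts, a ratio of 3.24. Cdkn2b had 8 and 2 counts, too few for a call, with a ratio of 0.279 and an interval that held 1 (0.0288 to 1.40). Among the E2F genes, the activator E2f3 had 208 and 213 counts, a ratio of 1.14, the repressors E2f4 and E2f5 had ratios of 0.795 (0.721 to 0.875) and 0.773 (0.636 to 0.937), and E2f8, a repressor made in S phase, had 36 and 59 counts, a ratio of 1.83 (1.19 to 2.85).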
